A study of Mus musculus with 8 samples.

Results

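The data described here are the RNA levels of 9 genes of the complement system and of the acute-phase response in prostate tumor cells: *C3*, *C4b*, *Cfb*, *Serping1*, *Cd55*, *Cd59a*, *Lcn2*, *Saa3* and *Hp*. They were taken by gene symbol from tables of 39089 genes, and each of the 9 had a row. RNA-seq had been performed on EpCAM+, CD45- cells sorted from subcutaneous tumors of Myc-CaP, a mouse prostate cancer cell line that carries a Myc transgene. The cells expressed a guide RNA against *Arid1a*, which encodes a SWI/SNF subunit, part of a complex that moves nucleosomes (labelled Myc-CaP *Arid1a* KO), or a control vector (labelled Myc-CaP EV and named WT here), and had been inoculated into male FVB mice aged 6 weeks. From day 16 the mice received JSH-23, an inhibitor of the nuclear entry of NF-κB, dissolved in DMSO and given in corn oil by daily gavage for 2 weeks, or corn oil as vehicle. The 4 groups held 2 samples each: WT with vehicle, WT with JSH-23, *Arid1a* KO with vehicle and *Arid1a* KO with JSH-23. Neither the labels nor the methods say whether the 2 samples of a group came from separate tumors, or whether the *Arid1a* KO cells were 1 clone, so p-values measure only the spread between these samples, which may be technical.

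Complement is a cascade of plasma proteins that marks surfaces for removal. The classical route uses C4 and the alternative route uses factor B to build the convertases that cleave *C3*, and inhibitors in plasma and on cell membranes hold the cascade back on host cells. Acute-phase proteins are made mainly by the liver in inflammation, but epithelial and tumor cells also express several of them. Interleukin-6 and interleukin-1 are the best known inducers, acting through STAT3, NF-κB and C/EBP factors, and *Lcn2*, *Saa3* and *C3* are known to respond to NF-κB in many cell types.

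All 9 genes are protein-coding. On the mm10 build of the files, *C4b* (chr17:34728139-34743902) and *Cfb* (chr17:34856374-34862514) lie close together on the minus strand, and *C3* (chr17:57203967-57228136) lies on the same chromosome. *Lcn2* (chr2:32384637-32387739), *Serping1* (chr2:84765360-84775444) and *Cd59a* (chr2:104095753-104115410) are on chromosome 2, the last on the plus strand. *Cd55* is at chr1:130429798-130465009, *Saa3* at chr7:46711998-46719615 and *Hp* at chr8:109575128-109579172.

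Promoter sequences are shown for the 3 members that carry the main differences below, *C3*, *Lcn2* and *Saa3*. RefSeq promoter windows on build GRCm38.p6, covering 250 bases before and 50 bases after a transcript start, were held for 5 of the 9 members, the other 2 being *Cd55* and *Cd59a*. The 250 bases before the start are printed on the strand of the gene, 5′ to 3′, from chr17:57228137-57228386 for *C3*, chr2:32387740-32387989 for *Lcn2* and chr7:46715677-46715926 for *Saa3*, all read from the minus strand. The *Saa3* window precedes a transcript that starts inside the span of the gene given above. Capitals mark matches to TTGCNNAA, the core of C/EBP binding sites, searched on both strands.
C3: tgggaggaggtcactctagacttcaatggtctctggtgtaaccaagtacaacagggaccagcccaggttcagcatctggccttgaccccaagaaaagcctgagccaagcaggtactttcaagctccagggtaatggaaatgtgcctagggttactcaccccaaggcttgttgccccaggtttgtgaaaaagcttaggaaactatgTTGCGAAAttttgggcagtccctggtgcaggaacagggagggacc
Lcn2: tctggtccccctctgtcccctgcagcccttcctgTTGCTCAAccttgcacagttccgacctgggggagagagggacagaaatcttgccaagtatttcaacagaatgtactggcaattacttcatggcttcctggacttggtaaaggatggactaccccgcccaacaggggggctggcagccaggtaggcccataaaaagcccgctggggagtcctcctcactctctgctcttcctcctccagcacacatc
Saa3: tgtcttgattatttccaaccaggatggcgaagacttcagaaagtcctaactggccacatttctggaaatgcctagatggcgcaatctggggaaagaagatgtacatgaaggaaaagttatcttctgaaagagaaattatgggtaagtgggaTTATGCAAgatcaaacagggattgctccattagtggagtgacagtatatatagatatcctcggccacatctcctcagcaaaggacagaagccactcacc
The match began at base -45 in *C3* and at base -216 in *Lcn2*, counted from the transcript start, and lay on the opposite strand at base -99 in *Saa3*. The *Cd55* and *Cd59a* windows held none, and 10.8% of all 32851 promoter windows held at least 1. The degenerate consensus of NF-κB sites, present in 8.46% of all windows, and TTCNNNGAA, the STAT core, present in 8.3%, had no match in any of the 5 windows. No match says only that these letters are not in these windows, and no binding was measured here.

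The samples were first compared with their labels. Total counts ranged from 16401581 to 21972231 per sample, 13921 genes had enough reads to be tested, and replicates were close, with a biological coefficient of variation common to all genes of 1.61%. *Arid1a*, the targeted gene, had 2555 to 2745 counts in the WT samples and 1736 to 2186 in the *Arid1a* KO samples, a log2 fold change with vehicle of -0.60 (SE 0.04, edgeR adjusted p = 1.39e-23). A guide RNA need not remove the mRNA, and protein was not measured in these files. *Epcam*, which encodes the sorted surface antigen, had 0 to 4 counts in every sample, and the epithelial genes *Cdh1* and *Krt18* were also sparse, with 1 to 19 and 4 to 18 counts, whereas the keratin genes *Krt8* and *Krt19* had 540 to 2308 and 207 to 2106 counts. *Ptprc*, which encodes CD45, had 0 to 10 counts.

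On the length-corrected TPM scale, the members spanned a wide range of levels. *Lcn2*, which encodes the iron-siderophore-binding protein lipocalin-2, was the most abundant member with a mean of 286 TPM over the 8 samples (lowest 150, highest 430). *C3*, the central complement component, followed at 77.0 TPM (44.9 to 108), with no overlap with *Lcn2*. *Saa3*, a serum amyloid A protein made outside the liver, had a mean of 17.6 TPM, and *Hp*, which encodes the hemoglobin scavenger haptoglobin, 6.37 TPM. The range of *Saa3*, 3.61 to 39.1 TPM, overlapped with that of *Hp*, 3.13 to 8.28 TPM, and their order was not the same in all samples. The range of *Hp* over all samples also overlapped with that of *Cfb*, but *Hp* lay above *Cfb* in each sample. *Cfb*, which encodes factor B of the alternative pathway, had a mean of 2.92 TPM and lay above *Serping1* in every sample. *Serping1*, the inhibitor of the C1 proteases, at 0.944 TPM, *Cd59a*, a membrane inhibitor of the terminal complex, at 0.520 TPM, and *C4b*, a component of the classical pathway, at 0.478 TPM overlapped with their neighbors in this order. *Lcn2* and *C3* together made up between 87.5% and 96.3% of the summed TPM of the 9 genes, and the lowest shares were those of the 3 samples with the highest *Saa3*.

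*Cd55*, which encodes the membrane protein that speeds the decay of *C3* convertases, was not detectable at this depth as a level that could be compared. It had 0 and 1 counts with vehicle and 1 and 0 with JSH-23 in WT, and 4 and 0 with vehicle and 2 and 0 with JSH-23 in *Arid1a* KO. A count of 0 allows up to 3 counts, or 0.144 to 0.182 CPM (counts scaled to library size) in these samples, for counting error only. Its near copy *Cd55b* had 0 counts in every sample. *Cd55* did not pass the filter on low counts, so 8 of the 9 members were tested.

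**Figure D1:**
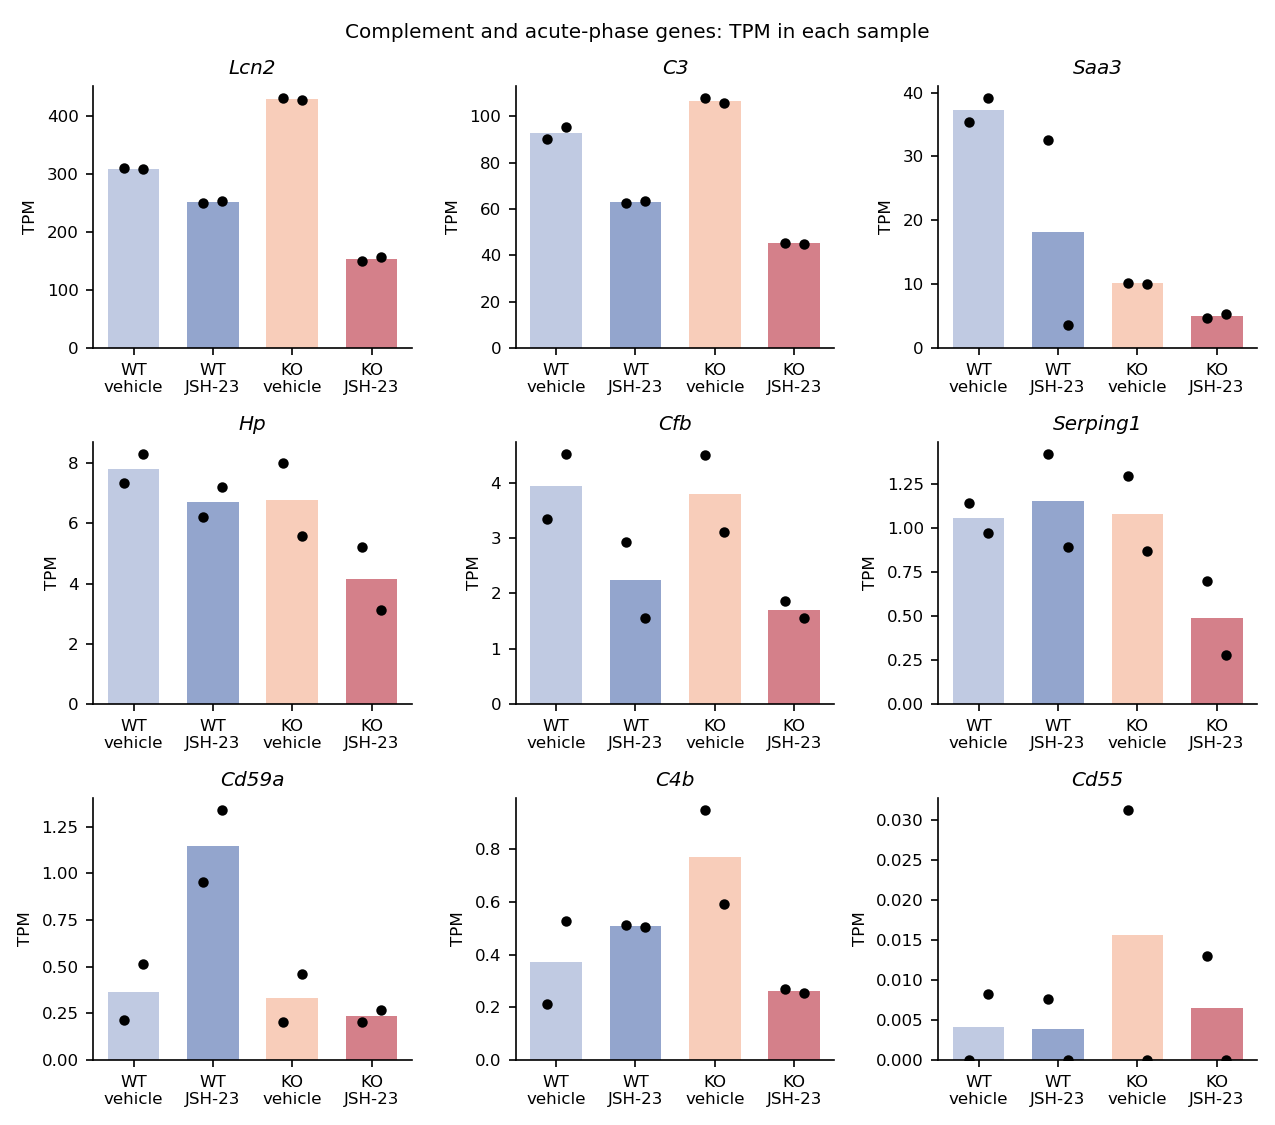
TPM of each of the 9 genes (y axis, from 0, a separate scale per gene) in the 4 groups (x axis). Bars are group means, dots are the 2 samples of a group. *Lcn2* and *C3* are highest in *Arid1a* KO with vehicle and lowest in *Arid1a* KO with JSH-23, and 1 WT sample with JSH-23 has 3.61 TPM of *Saa3* where the other has 32.6.

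The comparison of *Arid1a* KO with WT tumors under vehicle asked which genes changed when *Arid1a* was lost. *C4b* rose and *Saa3* fell among the 8 tested members, *Lcn2* and *C3* were higher by less than the 1.5-fold threshold, and *Cfb*, *Serping1*, *Cd59a* and *Hp* did not pass the test. A gene was called when its adjusted p in edgeR was under 0.05 and its fold change at least 1.5, so 1 of 8 members was called higher, where 7.48% of all tested genes were, and 1 of 8 was called lower, where 5.16% were. The median log2 fold change of the members was -0.03, beside 0.00 over all tested genes.

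*Lcn2* had 1770 and 1766 counts in WT and 2620 and 2972 in *Arid1a* KO, which is 104 ± 0.867 CPM and 144 ± 0.558 CPM (SD, n = 2). Both *Arid1a* KO samples lay above both WT samples. The log2 fold change was 0.47 (SE 0.04, edgeR adjusted p = 6e-18), or 1.38-fold, so the difference exceeded the replicate spread but not the fold threshold. *C3* had 3136 and 3343 counts in WT and 4011 and 4484 in *Arid1a* KO, or 191 ± 7.37 CPM against 219 ± 3.11 CPM. The groups did not overlap in CPM, and the log2 fold change of 0.20 (SE 0.03, edgeR adjusted p = 5.58e-08) corresponded to 1.15-fold.

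*C4b* was a low-count gene, with 8 and 20 counts in WT and 38 and 27 in *Arid1a* KO. Both *Arid1a* KO samples were higher in CPM, with a log2 fold change of 1.02 (SE 0.41, edgeR adjusted p = 0.0302). DESeq2 gave an adjusted p of 0.127. Without WT replicate 1 the log2 fold change was 0.51 (adjusted p = 0.408), and without *Arid1a* KO replicate 1 it was 0.66 (adjusted p = 0.338). *C4a*, annotated as a transcribed pseudogene, is a near-identical neighbor, and reads can be placed on either copy. *C4a* had 13 and 12 counts in WT and 24 and 45 in *Arid1a* KO. The counts of both genes together, 21 and 32 in WT against 62 and 72 in *Arid1a* KO, differed by a log2 fold change of 1.14 (SE 0.29, edgeR adjusted p = 0.000582).

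*Saa3* went the other way. It had 185 and 206 counts in WT and 57 and 64 in *Arid1a* KO, or 11.6 ± 0.800 CPM against 3.12 ± 0.0347 CPM, and the groups did not overlap. The log2 fold change was -1.88 (SE 0.26, edgeR adjusted p = 7.15e-09). The adjusted p was 0.113 with DESeq2 and 0.0873 with limma on log2(TPM + 1). The related genes *Saa1* and *Saa2* had at most 15 counts in any sample.

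Several macrophage genes moved with *Saa3*. Of 9 leukocyte and macrophage markers, 7 were tested, 6 were called lower in *Arid1a* KO with vehicle and 1, *Cd68*, was called higher. Over all tested genes, 5.16% were called lower and 7.48% higher. *Adgre1*, which encodes the macrophage antigen F4/80, had 17 and 19 counts in WT with vehicle, 17 and 1 in WT with JSH-23, 0 and 0 in *Arid1a* KO with vehicle and 0 and 2 in *Arid1a* KO with JSH-23. *Csf1r*, the receptor of macrophage growth factors, had 21 and 24, 15 and 1, 2 and 6, and 1 and 4 counts in the same groups, and *Lyz2*, a lysozyme gene, had 164 and 165, 190 and 85, 54 and 71, and 68 and 48. These 3 markers were thus highest in the same 3 WT samples in which *Saa3* was highest, whereas *Cd68*, with 81 to 127 counts in WT and 153 to 378 in *Arid1a* KO, and the sparse *Mrc1* and *Ptprc* did not follow this order. The summed level of the 9 markers lay between 17.7 and 46.7 TPM, most of it from *Cd68* and *Lyz2*. The 8 markers other than *Cd68* summed to between 14.4 and 15.4 CPM in those 3 samples and to between 3.12 and 5.59 CPM in the other 5. All 9 markers summed to 21.5 and 22.9 CPM in WT with vehicle and 19.9 and 10.5 in WT with JSH-23. In *Arid1a* KO they summed to 20.3 and 22.7 CPM with vehicle and 13.0 and 10.5 with JSH-23. The sum was thus similar in the 2 vehicle groups only with *Cd68* included. Without *Cd68* it was 15.0 and 15.4 CPM in WT with vehicle and 3.65 and 4.41 CPM in *Arid1a* KO with vehicle. In sorted bulk RNA, fewer cells of a type and less RNA per cell cannot be told apart. The part of these cells in the *Saa3* result was not tested.

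**Figure D2:**
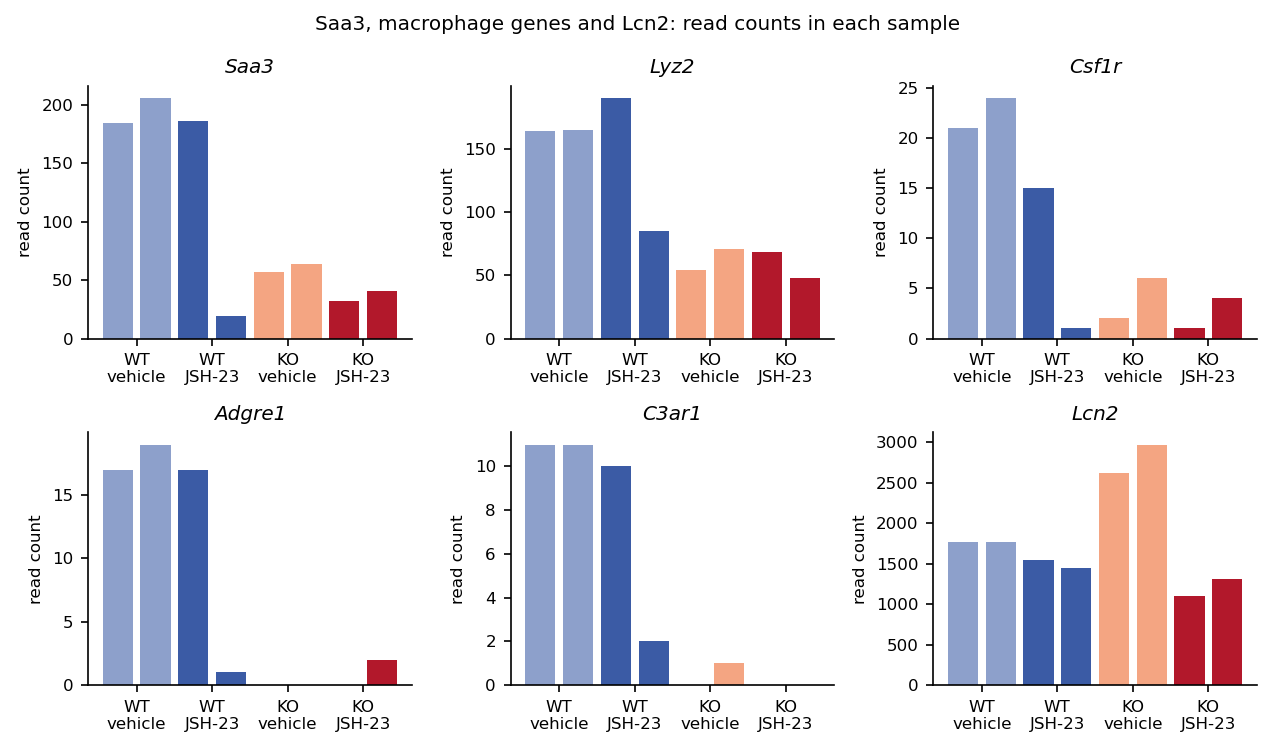
Read counts (y axis, from 0, a separate scale per gene) of *Saa3*, of the macrophage genes *Lyz2*, *Csf1r*, *Adgre1* and *C3ar1*, and of *Lcn2*, with 1 bar per sample (replicate 1, then replicate 2) in the 4 groups. *Saa3* and these 4 macrophage genes are highest in the same 3 WT samples, with 185, 206 and 186 *Saa3* counts, while *Lcn2* is highest in *Arid1a* KO with vehicle. Not shown are *Cd68*, which is higher in *Arid1a* KO, and the sparse *Mrc1* and *Ptprc*, which do not follow *Saa3* either.

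Other cell types that express members were measured as well. Of 9 neutrophil markers, 8 had 3 counts or fewer in every sample and *Ly6g* and *Retnlg* had 0, and the 9 summed to between 0 and 0.958 TPM. All 7 lymphocyte markers had 3 counts or fewer in every sample, and *Cd3d* and *Cd8a* had 0. The 5 hepatocyte markers summed to between 0.292 and 1.68 TPM. The 7 fibroblast markers summed to between 10.8 and 20.5 TPM, mostly from *Pdgfra*, and the 5 endothelial markers to between 0.341 and 0.974 TPM. The part of these cell types in the levels of the members was not tested.

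The remaining members gave no call with vehicle. *Cfb* had 62 and 84 counts in WT and 89 and 70 in *Arid1a* KO, with a log2 fold change of -0.07 (SE 0.22). *Hp* had 66 and 75 counts in WT and 77 and 61 in *Arid1a* KO, with a log2 fold change of -0.22 (SE 0.22). For both genes the samples of the groups overlapped. *Serping1*, with 14 and 12 counts against 17 and 13, and *Cd59a*, with 5 and 12 against 5 and 13, overlapped too, with log2 fold changes of 0.02 (SE 0.48) and -0.12 (SE 0.58).

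The comparison of JSH-23 with vehicle in *Arid1a* KO tumors asked which genes changed under the inhibitor in these cells. *C3*, *Lcn2*, *C4b* and *Cfb* fell, and the other 4 tested members had log2 fold changes below 0 without being called. Thus 4 of 8 members were called lower, where 16.9% of all tested genes were, and none was called higher in edgeR, where 9.1% were; at an unadjusted p under 0.05 and with DESeq2 the number higher was also 0. The median log2 fold change of the members was -0.91, beside -0.02 over all tested genes. All 8 tested members were below 0, where 51.5% of all tested genes were. Without scaling factors the median of all genes in this comparison was -0.13, and with limma on log2(TPM + 1) it was -0.21, so fold changes are given relative to the scaled median.

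*C3* fell from 4011 and 4484 counts to 2033 and 2277, that is from 219 ± 3.11 CPM to 110 ± 0.466 CPM. All treated samples were below all vehicle samples, with a log2 fold change of -1.0 (SE 0.03, edgeR adjusted p = 1.31e-39). *Lcn2* fell from 2620 and 2972 counts to 1097 and 1305, or from 144 ± 0.558 CPM to 60.9 ± 2.34 CPM. The groups again did not overlap, and the log2 fold change was -1.24 (SE 0.04, edgeR adjusted p = 1.46e-39). *C3* and *Lcn2* kept their call in all 21 alternative analyses that were run, with log2 fold changes of -1.24 to -0.97 for *C3* and -1.48 to -1.19 for *Lcn2*.

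*C4b* had 38 and 27 counts with vehicle and 13 and 14 with JSH-23, with no overlap and a log2 fold change of -1.29 (SE 0.41, edgeR adjusted p = 0.00426). *C4a* and *C4b* together fell from 62 and 72 counts to 36 and 26, a log2 fold change of -1.13 (SE 0.28, edgeR adjusted p = 0.000301). *Cfb* had 89 and 70 counts with vehicle and 44 and 42 with JSH-23, with no overlap and a log2 fold change of -0.91 (SE 0.24, edgeR adjusted p = 0.000594). Both calls were lost without vehicle replicate 1, with log2 fold changes of -0.92 (adjusted p = 0.129) for *C4b* and -0.63 (adjusted p = 0.057) for *Cfb*. Among 5 tested fibroblast markers, 1 was called lower in this comparison, where 16.9% of all tested genes were. It was *Pdgfra*, with 1090 and 1265 counts against 704 and 802. The other 4 were not called and their samples overlapped, with log2 fold changes of 0.24 for *Col1a1* and 0.16 for *Dcn*. Those of *Col1a2* and *Col3a1* were -0.48 and -0.46. Fibroblasts can express complement transcripts, and their part in these results was not tested.

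*Saa3* had 57 and 64 counts with vehicle and 32 and 41 with JSH-23 in *Arid1a* KO. The samples did not overlap, but the log2 fold change of -0.75 (SE 0.37) had an edgeR adjusted p of 0.066, and over the alternatives the adjusted p ranged from 0.00225 to 0.573. *Hp* had 77 and 61 counts against 60 and 41, overlapping in CPM, with a log2 fold change of -0.47 (SE 0.23, edgeR adjusted p = 0.0623). Without *Arid1a* KO vehicle replicate 2 the log2 fold change of *Hp* was -0.72, and without JSH-23 replicate 1 it was -0.84. With all samples, limma called *Hp* lower, at -0.60 on log2(TPM + 1) (adjusted p = 0.0376) and -0.71 on log2(TPM + 0.1) (adjusted p = 0.0365). *Hp* was not called in 17 of 21 alternatives, so its result depended on the method and on single samples. *Serping1* had 17 and 13 counts against 11 and 5, without overlap, with a log2 fold change of -0.92 (SE 0.53, edgeR adjusted p = 0.121). *Cd59a* had 5 and 13 counts against 6 and 9, with a log2 fold change of -0.28 (SE 0.60).

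JSH-23 was also compared with vehicle in WT tumors. *Cfb* and *Saa3* fell, *Cd59a* rose, and *C3* and *Lcn2* were lower by less than the fold threshold. Of 8 members, 2 were called lower, where 10.2% of all tested genes were, and 1 was called higher, where 5.55% were. The median log2 fold change of the members was -0.22, beside -0.01 over all tested genes.

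*C3* had 3136 and 3343 counts with vehicle and 2385 and 2225 with JSH-23 in WT, or 191 ± 7.37 CPM against 134 ± 1.47 CPM. The groups did not overlap, and the log2 fold change of -0.51 (SE 0.03, edgeR adjusted p = 2.25e-22) was 1.43-fold. *Lcn2* had 1770 and 1766 counts against 1550 and 1446, or 104 ± 0.867 CPM against 87.2 ± 0.958 CPM. Its log2 fold change was -0.26 (SE 0.04, edgeR adjusted p = 1.12e-07), or 1.20-fold, again without overlap.

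*Cfb* had 62 and 84 counts with vehicle and 59 and 29 with JSH-23, with a log2 fold change of -0.75 (SE 0.24, edgeR adjusted p = 0.00594). The call was lost without vehicle replicate 2, at -0.53 (adjusted p = 0.148), and without JSH-23 replicate 2, at -0.38 (adjusted p = 0.24). *Saa3* had 185 and 206 counts with vehicle and 186 and 19 with JSH-23, so 1 treated sample lay close to the vehicle samples and the other far below. The log2 fold change was -0.96 (SE 0.24, edgeR adjusted p = 0.000451), but -0.15 (adjusted p = 0.462) without JSH-23 replicate 2 and -3.31 without JSH-23 replicate 1. JSH-23 replicate 2 was also the WT sample in which *Adgre1*, *Csf1r* and *Lyz2* were lowest.

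*Cd59a* had 5 and 12 counts with vehicle and 24 and 31 with JSH-23 in WT. Both treated samples were higher, with a log2 fold change of 1.66 (SE 0.48, edgeR adjusted p = 0.00217), and 1.18 (adjusted p = 0.0953) without vehicle replicate 1. Its near copy *Cd59b* had at most 3 counts in any sample. *C4b*, with 8 and 20 counts against 21 and 19, *Serping1*, with 14 and 12 against 19 and 11, and *Hp*, with 66 and 75 against 61 and 65, were not called, and their samples overlapped.

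The last comparison of groups set *Arid1a* KO against WT tumors under JSH-23. *Saa3* and *Cd59a* were called lower, 2 of 8 members, where 4.97% of all tested genes were called lower. No member was called higher in edgeR, at an unadjusted p under 0.05 or with DESeq2, where 3.74% of all tested genes were called higher. The median log2 fold change of the members was -0.64, beside -0.01 over all tested genes. All 8 tested members were below 0, where 51.3% of all tested genes were.

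*Cd59a* had 24 and 31 counts in WT and 6 and 9 in *Arid1a* KO, with no overlap and a log2 fold change of -2.06 (SE 0.48, edgeR adjusted p = 0.000271). *Saa3* had 186 and 19 counts in WT and 32 and 41 in *Arid1a* KO, so the samples overlapped. Its log2 fold change was -1.67 (SE 0.33, edgeR adjusted p = 1.73e-05), and it reversed to 0.68 (adjusted p = 0.14) without WT replicate 1. *Lcn2* and *C3*, which were higher in *Arid1a* KO with vehicle, were lower in *Arid1a* KO with JSH-23: *Lcn2* by a log2 fold change of -0.52 (SE 0.04, edgeR adjusted p = 1.77e-16) and *C3* by -0.29 (SE 0.04, edgeR adjusted p = 6.17e-11). For both genes the samples did not overlap and the 1.5-fold threshold was not reached. *Serping1*, at -1.08 (SE 0.53, edgeR adjusted p = 0.0885), *C4b*, at -0.76 (SE 0.44, edgeR adjusted p = 0.16), *Hp*, at -0.51 (SE 0.23, edgeR adjusted p = 0.0649), and *Cfb*, at -0.22 (SE 0.27), were not called. Without *Arid1a* KO replicate 1, *Serping1* was at -1.82 (adjusted p = 0.0451) and *Hp* at -0.89 (adjusted p = 0.00934).

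**Figure D3:**
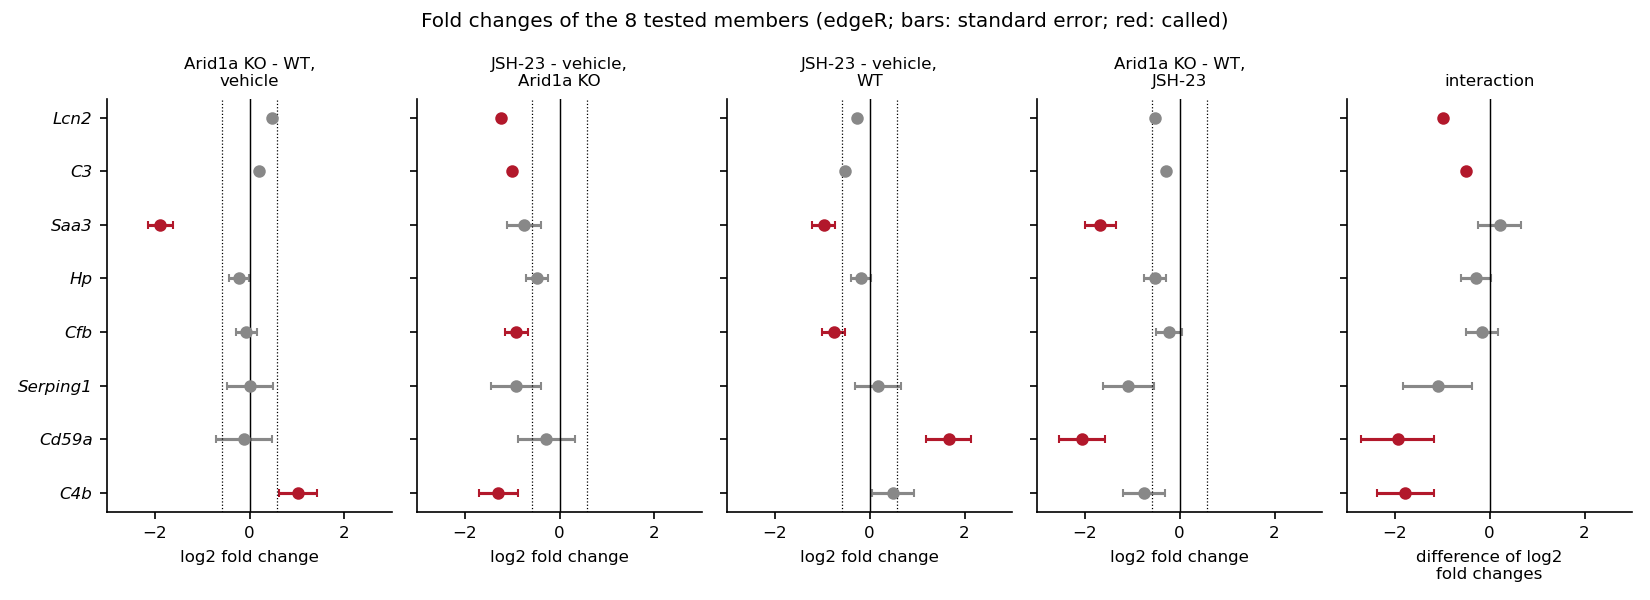
Log2 fold changes (x axis) of the 8 tested members (y axis) in the 4 comparisons of groups, and the difference of the JSH-23 effects between genotypes (interaction, right). Bars are standard errors, dotted lines mark 1.5-fold, and red marks called genes. In *Arid1a* KO all 8 members lie left of 0 under JSH-23, with *C3* at -1.0 and *Lcn2* at -1.24.

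Whether JSH-23 acted differently in the 2 genotypes was tested as an interaction, which needed an adjusted p under 0.05 and no fold threshold. The effect was lower in *Arid1a* KO than in WT for *Lcn2*, *C3*, *C4b* and *Cd59a*, so 4 of 8 members were called lower, where 17.9% of all tested genes were. No member was called higher in edgeR, at an unadjusted p under 0.05 or with DESeq2, where 20.5% of all tested genes were called higher. *Lcn2* changed by -1.24 on the log2 scale in *Arid1a* KO and by -0.26 in WT, a difference of -0.98 (SE 0.06, edgeR adjusted p = 6.91e-24). *C3* changed by -1.0 and by -0.51, a difference of -0.49 (SE 0.05, edgeR adjusted p = 1.87e-14). *C4b* changed by -1.29 and by 0.49, a difference of -1.78 (SE 0.60, edgeR adjusted p = 0.014), and *C4a* and *C4b* together gave a difference of -1.10 (SE 0.44, edgeR adjusted p = 0.0382). *Cd59a* changed by -0.28 and by 1.66, a difference of -1.94 (SE 0.78, edgeR adjusted p = 0.0401). These comparisons share samples, so their fold changes are not independent of each other.

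The interactions of the low-count members rested on single samples. *C4b* lost its call without WT vehicle replicate 1, at -1.27 (adjusted p = 0.124), and without *Arid1a* KO vehicle replicate 1, at -1.41 (adjusted p = 0.119). *Cd59a* lost its call without WT vehicle replicate 1 (-1.45), WT JSH-23 replicate 2 (-1.68), *Arid1a* KO vehicle replicate 2 (-1.21), *Arid1a* KO JSH-23 replicate 1 (-1.75) or *Arid1a* KO JSH-23 replicate 2 (-2.15), with adjusted p between 0.0678 and 0.427. *Saa3*, at 0.21 (SE 0.45, edgeR adjusted p = 0.752), gained a call at 2.57 (adjusted p = 5.9e-08) without WT JSH-23 replicate 1. *Lcn2* and *C3* kept their calls without any of the 8 samples. At a biological coefficient of variation of 0.2, neither *Lcn2* nor *C3* was called, with adjusted p of 0.599 for *Lcn2* and 1 for *C3*. At 0.1, *C3* was not called either (adjusted p = 0.156). The replicates here spread far less than that, but their spread may be technical.

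The genes whose CPM followed *C3* most closely over the 8 samples, out of 9192 genes that averaged 10 CPM or more, were *Stx2*, *Map3k9* and *Mfap1a*, each with a Pearson correlation of 0.998 on the log2 scale. Those closest to *Lcn2* were *Plagl2*, at 0.994, and *Ern1* and *Ddx5*, both at 0.992. These correlations are descriptions over 4 pairs of replicates, which share their group. *Stx2*, for example, had 28.2 and 29.4 CPM in WT with vehicle, 16.2 and 17.1 in WT with JSH-23, 35.9 and 35.2 in *Arid1a* KO with vehicle, and 13.2 and 13.0 in *Arid1a* KO with JSH-23.

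Most other genes of the complement cascade were sparsely expressed in these cells. Exceptions were *Clu*, *Cr1l* and *Masp2*, with means over the 8 samples of 84.9, 20.3 and 10.5 TPM, beside 77.0 TPM for *C3*. Beside the complement lists below, 7.48% of all tested genes were called higher and 5.16% lower in *Arid1a* KO with vehicle. Under JSH-23 in *Arid1a* KO these shares were 9.1% and 16.9%. Of 16 genes of the initiating steps, 3 were tested. In *Arid1a* KO under JSH-23, 1 was called lower, *Masp2*, a protease of the lectin route, which had 340 and 416 counts with vehicle and 166 and 227 with JSH-23, a log2 fold change of -0.97 (SE 0.11, edgeR adjusted p = 1.21e-12). *Fcna*, a ficolin that recognizes carbohydrates, had 58 and 44 counts in WT and 35 and 37 in *Arid1a* KO with vehicle, a log2 fold change of -0.70 (edgeR adjusted p = 0.0299) that was not called without WT replicate 1 (-0.48), *Arid1a* KO replicate 1 (-0.75) or *Arid1a* KO replicate 2 (-0.64). *C1ra*, a C1 protease, was called higher under JSH-23 in WT, with 11 and 5 counts against 23 and 17 (log2 fold change 1.29, edgeR adjusted p = 0.0215), but not without vehicle replicate 2 (0.83) or JSH-23 replicate 1 (1.12).

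Of the 4 other genes of the central and alternative steps, 3 were tested. With vehicle, 2 of them were called higher in *Arid1a* KO, *C4a* and *Cfd*, and the same 2 were called lower under JSH-23 in *Arid1a* KO. Because reads can be placed on either copy, the calls of *C4a* cannot be taken as separate from those of *C4b*. How such reads were assigned was not tested. *Cfd*, the factor D protease that activates factor B, had 4 and 14 counts in WT and 20 and 31 in *Arid1a* KO with vehicle, and 11 and 7 in *Arid1a* KO with JSH-23. The rise of *Cfd*, 1.29 on the log2 scale, was not called without WT replicate 1 (0.66) or *Arid1a* KO replicate 2 (1.04), and its fall, -1.50, was not called without vehicle replicate 2 (-1.25) or JSH-23 replicate 2 (-1.11). The rise of *C4a*, 1.25, was not called without WT replicate 2 (1.18) or *Arid1a* KO replicate 2 (0.84), and its fall, -0.98, was not called without vehicle replicate 2 (-0.55) or JSH-23 replicate 2 (-0.48). *Cfp*, which encodes properdin, the stabilizer of the alternative convertase, was not called, at -0.25 with vehicle and -0.58 under JSH-23 in *Arid1a* KO. Of 7 genes of the terminal complex, *C8g* alone was tested. It had 39 and 32 counts in WT with vehicle and 54 and 58 with JSH-23, a log2 fold change of 0.64 (edgeR adjusted p = 0.034) that was not called without vehicle replicate 2 (0.49) or JSH-23 replicate 2 (0.53).

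Among the 11 other regulators of complement, 3 were tested, and 2 of them rose in *Arid1a* KO with vehicle. *Clu*, which encodes clusterin, a chaperone that also binds the terminal complex, was the most abundant. It had 978 and 1034 counts in WT with vehicle and 2184 and 2313 in *Arid1a* KO with vehicle, and the groups did not overlap. Its log2 fold change was 0.97 (SE 0.05, edgeR adjusted p = 2.66e-29), and under JSH-23 in *Arid1a* KO, with 1478 and 1621 counts, it was -0.56 (edgeR adjusted p = 2.09e-19), just short of the fold threshold. *Cd46*, a membrane cofactor for the cleavage of C3b, had 44 and 54 counts in *Arid1a* KO with vehicle and 6 and 6 with JSH-23, a log2 fold change of -3.02 (SE 0.43, edgeR adjusted p = 4.89e-09). The rise of *Cd46* from 28 and 19 counts in WT with vehicle, 0.86 on the log2 scale (edgeR adjusted p = 0.0251), was not called without WT replicate 2 (0.60), *Arid1a* KO replicate 1 (0.91) or *Arid1a* KO replicate 2 (0.80). *Cr1l*, which encodes Crry, the rodent membrane regulator of *C3* and C4, had 256 to 370 counts and was not called in either comparison.

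Complement receptors had few reads. Of 9 receptor genes, 3 were tested, and 2 of them, *C3ar1* and *Itgam*, were called lower in *Arid1a* KO with vehicle. *C3ar1*, the receptor of C3a, had 11 and 11 counts in WT with vehicle, 10 and 2 in WT with JSH-23, 0 and 1 in *Arid1a* KO with vehicle and 0 and 0 in *Arid1a* KO with JSH-23. *Itgam*, the alpha chain of complement receptor 3, had 10 and 15, 12 and 0, 0 and 0, and 1 and 0 counts in the same groups. Both are also genes of myeloid cells and followed the sample pattern of *Adgre1* and *Csf1r*, as did *C1qb*, a subunit of C1q, which was too low to be tested and had 4 and 8, 12 and 1, 1 and 0, and 1 and 0 counts. The part of myeloid cells in these results was not tested. *Itgb2*, the beta chain of that receptor, had 7 and 24 counts in *Arid1a* KO with vehicle and 5 and 5 with JSH-23, a log2 fold change of -1.62 (edgeR adjusted p = 0.0177) that was not called without vehicle replicate 2 (-0.59), JSH-23 replicate 1 (-1.68) or JSH-23 replicate 2 (-1.51).

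Of 32 other acute-phase proteins, most of them secreted, 10 were tested. With vehicle, 2 were called higher and 2 lower in *Arid1a* KO, where 7.48% and 5.16% of all tested genes were. Under JSH-23 in *Arid1a* KO, 1 was called higher and 4 lower, where 9.1% and 16.9% of all tested genes were. The metallothioneins *Mt1* and *Mt2*, which are intracellular metal-binding proteins of the same response, were both lower in *Arid1a* KO with vehicle. *Mt1* had 24341 and 24411 counts in WT and 13140 and 14847 in *Arid1a* KO, a log2 fold change of -1.0 (SE 0.02, edgeR adjusted p = 4.36e-57). *Mt2* had 41508 and 43217 counts in WT and 27401 and 29410 in *Arid1a* KO, a log2 fold change of -0.77 (edgeR adjusted p = 1.38e-50). Under JSH-23 in *Arid1a* KO, *Mt1* rose to 20003 and 23236 counts, a log2 fold change of 0.60 (edgeR adjusted p = 4.2e-44), which was 0.37 at its lowest over the alternatives and then below the fold threshold. *Cp*, which encodes ceruloplasmin, had 7475 to 11032 counts and was not called in either comparison. *Cd14*, the co-receptor for lipopolysaccharide, had 204 and 259 counts in *Arid1a* KO with vehicle and 112 and 135 with JSH-23, a log2 fold change of -0.93 (SE 0.13, edgeR adjusted p = 1.89e-09). It was also called lower under JSH-23 in WT, with a log2 fold change of -0.76 (edgeR adjusted p = 1.62e-06).

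**Figure D4:**
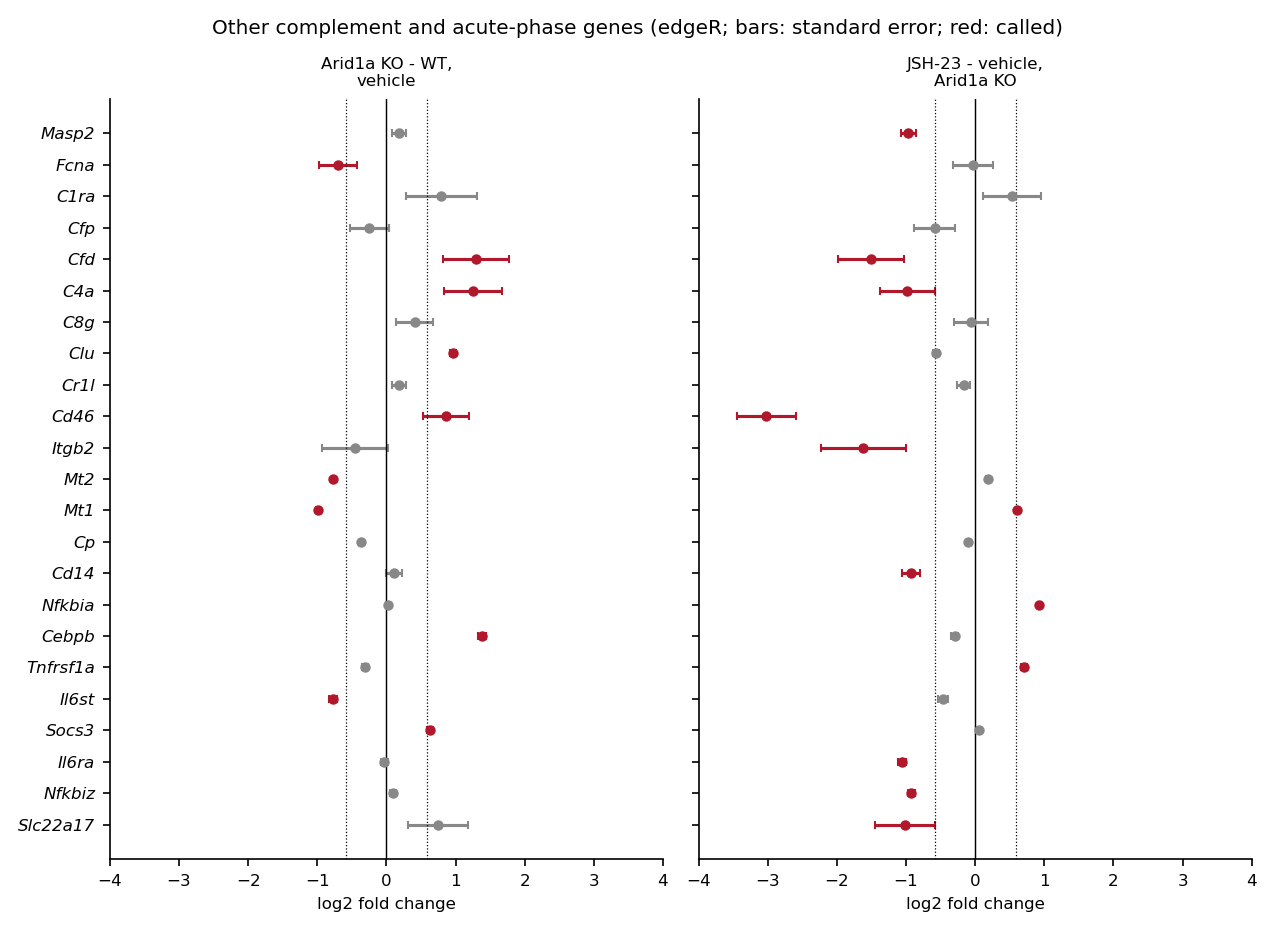
Log2 fold changes (x axis) of the named complement and acute-phase genes other than the 9 members (y axis), for *Arid1a* KO against WT with vehicle (left) and JSH-23 against vehicle in *Arid1a* KO (right). Bars are standard errors, dotted lines mark 1.5-fold, red marks called genes, and genes with 3 counts or fewer in both samples of a group are left out. *Clu* and *Cebpb* lie right of the threshold on the left, at 0.97 and 1.38, and *Cd46* lies at -3.02 on the right.

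Of 25 genes of acute-phase signalling, 21 were tested. With vehicle, 2 were called higher and 2 lower in *Arid1a* KO, where 7.48% and 5.16% of all tested genes were. Under JSH-23 in *Arid1a* KO, 2 were called higher and 8 lower, where 9.1% and 16.9% of all tested genes were. The median log2 fold change there was -0.46, beside -0.02 over all tested genes. *Cebpb*, which encodes the transcription factor C/EBPβ, had 1463 and 1982 counts in WT with vehicle, 2898 and 3592 in WT with JSH-23, 4595 and 5691 in *Arid1a* KO with vehicle, and 4070 and 4431 in *Arid1a* KO with JSH-23. It was thus lowest in WT with vehicle, and the log2 fold change of *Arid1a* KO against WT with vehicle was 1.38 (SE 0.06, edgeR adjusted p = 2.29e-31). *Socs3*, a feedback inhibitor of STAT3 signalling, had 1414 and 1458 counts in WT and 2380 and 2707 in *Arid1a* KO with vehicle, a log2 fold change of 0.63 (SE 0.04, edgeR adjusted p = 9.16e-24). *Il6st*, which encodes the shared receptor chain gp130, had 942 and 992 counts against 612 and 686, a log2 fold change of -0.77 (SE 0.06, edgeR adjusted p = 1e-17). At a biological coefficient of variation of 0.2 neither *Socs3* nor *Il6st* was called, and *Socs3* was not called in the test against 1.5-fold either.

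Under JSH-23 in *Arid1a* KO, *Il6ra*, the interleukin-6 receptor, fell from 1223 and 1379 counts to 604 and 664, a log2 fold change of -1.06 (edgeR adjusted p = 1.28e-26). *Nfkbiz*, which encodes the NF-κB cofactor IκBζ, fell from 1810 and 1947 counts to 953 and 1064, a log2 fold change of -0.92 (edgeR adjusted p = 1.04e-27). Both were also called lower under JSH-23 in WT, with log2 fold changes of -0.91 for *Il6ra* and -1.0 for *Nfkbiz*. *Nfkbia*, which encodes the NF-κB inhibitor IκBα, moved the other way, from 6513 and 7262 counts to 12449 and 14197 in *Arid1a* KO, a log2 fold change of 0.93 (edgeR adjusted p = 1.37e-49). *Tnfrsf1a*, a receptor of tumor necrosis factor, rose from 1370 and 1500 counts to 2207 and 2547, a log2 fold change of 0.70 (edgeR adjusted p = 1.22e-25). The call of *Tnfrsf1a* was lost in both limma fits, at 0.46, and at a biological coefficient of variation of 0.2. *Nfkbia* and *Tnfrsf1a* were also higher under JSH-23 in WT, below the fold threshold. Their log2 fold changes there were 0.58 (edgeR adjusted p = 9.58e-36) and 0.33 (edgeR adjusted p = 7.21e-11). In WT *Nfkbia* was just short of the threshold, at 1.498-fold, and was called in 7 of 21 alternatives.

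Receptors that take up lipocalin-2 or haptoglobin were near the limit of detection. Of 3 listed genes, 2 were tested. *Slc22a17*, a lipocalin-2 receptor, had 24 and 26 counts in *Arid1a* KO with vehicle and 11 and 14 with JSH-23, a log2 fold change of -1.02 (edgeR adjusted p = 0.0357) that was not called without any 1 of these 4 samples, with values of -1.09 to -0.92. *Lrp2*, an endocytic receptor of the kidney tubule, had 2 to 15 counts in every sample. It was called lower under JSH-23 in WT, with 6 and 13 counts against 2 and 2 (log2 fold change -2.20, edgeR adjusted p = 0.0174). The call of *Lrp2* was lost in 7 of 19 alternatives. *Cd163*, the macrophage receptor of haptoglobin complexes, had 0 or 1 counts.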

How the data were processed

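RNA-seq had been performed on EpCAM+, CD45- cells from subcutaneous tumors in 8 samples. The deposited files held whole-number read counts per gene, without normalization, and TPM values that the authors had derived per sample. According to the methods the authors used TopHat2 on GRCm38/mm10, kept the best alignment, and counted by strand with HTSeq-count, whereas the submitters' processing notes list HISAT2, HTSeq and DESeq2. Reads shared by near-identical copies can therefore be assigned to either, and the depth of a sample is lost in TPM.

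Samples were grouped by their labels. Genes were filtered with filterByExpr, which left 13921 of 39089, and scaled with TMM factors of 0.949 to 1.03. The deposited counts of all 8 samples entered 1 quasi-likelihood fit, with 1 coefficient per group, in edgeR 4.0.16 (R 4.3.3). There were 5 comparisons, with Benjamini-Hochberg adjustment over all tested genes. CPM use the scaled library sizes, and edgeR added a prior count of 0.125 to fold changes. Promoters were RefSeq windows, searched with regular expressions. The fit was tested on simulated data.

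The named genes are the 9 members, *Arid1a*, *Epcam*, *Ptprc*, and, per list, up to 3 tested genes of highest mean TPM and up to 3 called genes with the largest change in *Arid1a* KO against WT with vehicle or in JSH-23 against vehicle in *Arid1a* KO at a mean of at least 1 CPM, plus 3 genes most like *C3* and *Lcn2*. Markers, near copies, *C1qb* and *Cd163* were named outside this rule, after their values were seen. Members, lists and alternatives were chosen with earlier results of these data known. Alternatives were DESeq2 1.42.0, no TMM factors, no filter, a minimum of 10 counts per sample, a replicate block, limma 3.58.1 on log2(TPM + 1) and log2(TPM + 0.1), only the groups compared, unadjusted p, a test against 1.5-fold, and leaving out each of the 8 samples. Chosen after seeing the data were biological coefficients of variation of 0.1 and 0.2 and summed *C4a* and *C4b* counts.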

Additional observations from a re-analysis of the deposited data

Results flagged for a closer look

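The effect of JSH-23 differed between genotypes, by a test of the difference itself, for 4 members. On the log2 scale the effect in *Arid1a* KO minus that in WT was -0.98 for *Lcn2*, -0.49 for *C3*, -1.78 for *C4b* and -1.94 for *Cd59a*. *Lcn2* and *C3* were lower with JSH-23 in both samples of both genotypes. *C4b* was lower in *Arid1a* KO and *Cd59a* was higher in WT, both at 38 counts or fewer in every sample. No group had enough samples for a search for single outlying samples.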

How the results depend on the processing

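Of 806 values of single members under the 21 alternatives, 734 kept their side of the threshold, 46 lost and 25 gained a call, and 1 reversed: with 1 sample left out, *Saa3* in *Arid1a* KO against WT with JSH-23 ranged from -2.48 to 0.68, the latter without WT JSH-23 replicate 1. Of 1601 values of the 26 other named genes, 90 lost and 20 gained a call and 0 reversed. The causes were not tested.

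With vehicle, the 1 member higher in *Arid1a* KO became 0 with DESeq2, at least 10 counts, limma with either pseudocount, the test against 1.5-fold or a coefficient of variation of 0.2, and the 1 lower became 0 with DESeq2 or either limma fit. Under JSH-23 in *Arid1a* KO, the 4 lower became 2 in the test against 1.5-fold, 3 with a coefficient of 0.2, 5 without TMM factors, without a filter, with only the groups compared, with unadjusted p or a coefficient of 0.1, and 6 with log2(TPM + 0.1). Under JSH-23 in WT, the 1 higher became 0 with at least 10 counts or the test against 1.5-fold, and the 2 lower became 1 with DESeq2 or a coefficient of 0.2 and 0 with either limma fit or the test against 1.5-fold. In *Arid1a* KO against WT with JSH-23, the 2 lower became 1 with DESeq2 or at least 10 counts and 4 without TMM factors or with log2(TPM + 0.1). For the interaction, the 4 lower became 2 with DESeq2, at least 10 counts or a coefficient of 0.1, and 0 with 0.2. At least 10 counts in every sample removes low-count members from the test. Leaving out 1 sample gave 0 to 1 higher with vehicle, 2 to 5 lower under JSH-23 in *Arid1a* KO, 0 to 1 higher and 0 to 2 lower under JSH-23 in WT, 1 to 4 lower with JSH-23, and 0 to 1 higher and 2 to 4 lower for the interaction.

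Scaling moved the balance of calls over all genes. Under JSH-23 in *Arid1a* KO, 35% of called genes were higher, but 22.5% without TMM factors and 12.8% with log2(TPM + 1). With JSH-23, the same shares between genotypes were 42.9%, 29.6% and 15.9%, and those of the interaction 53.3%, 33.1% and 18.7%.

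Replicate numbers did not pair the samples: deviations of same-numbered samples correlated between -0.09 and 0.04. With the replicate number as a block, *Saa3* under JSH-23 in *Arid1a* KO was called (log2 fold change -0.75, adjusted p = 0.00728), so that 5 members were lower there, and no other member changed its call.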
